A study of Caenorhabditis elegans with 11 samples.

Results

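Gonads of day-one adult Caenorhabditis elegans were compared between the wild-type strain N2 and strain RB950, a cup-4(ok837) deletion mutant. The gene cup-4 is needed by coelomocytes, scavenger cells of the body cavity, for uptake of material from the body fluid. There were 3 libraries of antisense small RNA per genotype. Polyadenylated mRNA was sequenced in 2 wild-type libraries, of replicates 2 and 3, and in 3 cup-4 libraries, and the labels give each replicate number as a batch. The labels give no other allele or treatment, the mutant is 1 strain, and the tissue is called germline although whole gonads, which also hold somatic sheath cells, were taken. The genes described here are those with more antisense small RNA in cup-4. A gene was included when every cup-4 library held at least 10 CPM (the gene's count scaled to 1e6 gene counts in the library) and the lowest cup-4 library was at least 1.5 times the highest wild-type library. Of 46904 gene rows, 6702 reached 10 CPM in every cup-4 library and 100 met the rule, which is 1.49% of the 6702. The 4 genes fezf-1, kal-1, C08F11.7 and gpx-4 are left out, and 96 genes remain. The mirror rule for loss, at the same thresholds, was met by 22 genes, or 0.342% of those at 10 CPM in every wild-type library.

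In the C. elegans germline most small RNA antisense to genes consists of secondary siRNAs, which RNA-dependent RNA polymerases copy from mRNA templates and which Argonaute proteins bind. Depending on the Argonaute, a targeted gene can be silenced, also across generations, or kept active. A gene can therefore carry much antisense small RNA whether its mRNA is scarce or abundant.

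The members were chosen by their small RNA values in all 6 libraries, so those values are given as a description with no test, and only the mRNA was tested. Gene counts summed to between 14858199 and 39310540 per small RNA library and to between 21290140 and 29559542 per mRNA library. The mRNA counts of cup-4 itself were 117 and 85 for wild type, above the 23, 37 and 20 of the mutant. The rule depends on how the libraries are scaled. With TMM scaling (which aligns the bulk of genes rather than the totals) 65 of the 96 genes still met it, and the median log2 ratio of 9504 well-counted genes moved from 0.05 to -0.06. Because the rule uses the extremes of 6 libraries, leaving a library out admits more genes, up to 223 when wild-type replicate 1 is dropped. The count was 186 on dropping wild-type replicate 2, 171 on dropping cup-4 replicate 3 and 159 on dropping cup-4 replicate 1.

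The differences were mostly moderate. The fold of mean CPM, cup-4 over wild type, had a median of 2.28 over the 96 genes and ran from 1.65 to 6.58. It was at least 2 in 69 genes and at least 3 in 17. The ratio that the rule used, lowest cup-4 over highest wild type, had a median of 1.74 and was at least 2 in 18 genes. Within batches the fold of each cup-4 library over the wild-type library of its number had medians of 2.08, 2.15 and 2.50 in batches 1, 2 and 3. The largest of the 3 folds fell in batch 3 for 46 genes, in batch 2 for 29 and in batch 1 for 21. Most of the genes carried little small RNA, with a cup-4 mean of 10 to 20 CPM in 22 genes, 20 to 50 CPM in 29, 50 to 100 CPM in 21, 100 to 1000 CPM in 21 and above 1000 CPM in 3.

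**Figure D1:**
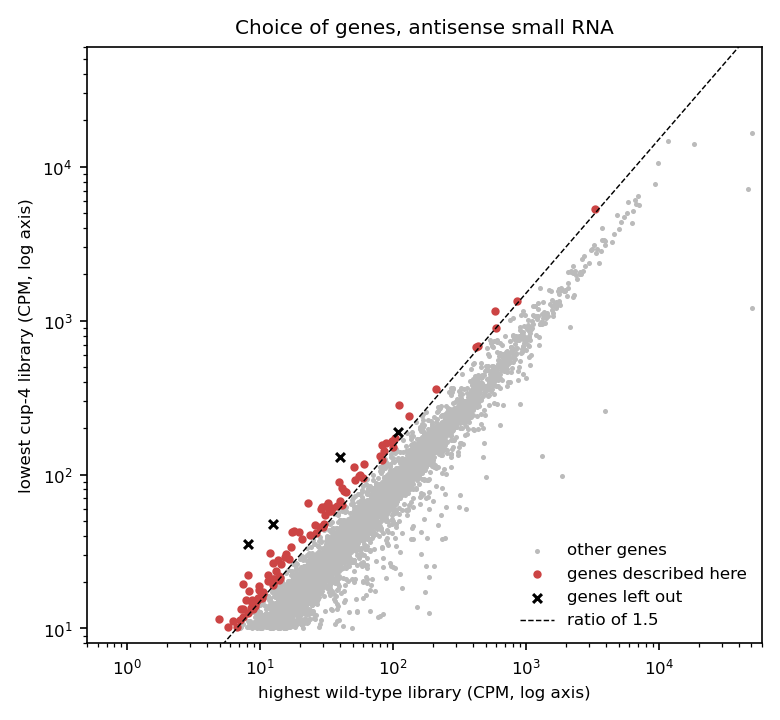
Each point is a gene with at least 10 CPM of antisense small RNA in every cup-4 library, placed by its highest wild-type library (x, CPM, log axis) and its lowest cup-4 library (y, CPM, log axis). The 96 genes described here lie on or above the dashed line of ratio 1.5, close to it for most, and the 4 genes left out are crosses.

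At the threshold the choice was close. Just inside were WBGene00010402 (ratio 1.50266), C36A4.11 (1.50064) and C24D10.5 (1.50015), and just outside were Y39B6A.41 (1.49911), the intestinal intermediate filament gene ifd-2 (1.490) and exc-6 (1.489).

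The largest ratio belonged to egl-8 (WBGene00001177), which encodes a phospholipase C beta of G-protein signalling and spans 20818 to 43704 on chromosome V (assembly WBcel235, the assembly also named ce11). Its antisense small RNA was 22.97, 19.002 and 19.06 CPM in wild type, here and below in the order of replicates 1 to 3, and 118.7, 68.9 and 65.1 CPM in cup-4. Cup-4 replicate 1 stood above the other two, and the mean fold was 4.14. ZC204.14 had 7.41, 7.63 and 8.15 CPM in wild type and 22.2, 33.7 and 25.1 CPM in cup-4. In epic-2 the values were 7.41, 5.95 and 5.91 CPM against 22.1, 27.7 and 19.6 CPM. Both had little small RNA in every wild-type library and about as much as each other in cup-4, at mean folds of 3.49 and 3.60. Next came a pair of identifiers without a symbol. WBGene00014672 had 9.82, 11.9 and 11.7 CPM in wild type and 31.05, 39.6 and 34.9 CPM in cup-4. WBGene00021055 had 107, 111 and 99.3 CPM against 317, 359.9 and 285 CPM. The libraries of each genotype lay close together in both genes, with mean folds of 3.16 and 3.03.

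The next of the 10 largest ratios were K09H9.8, F54F7.6, F39G3.2, nhr-84 and kel-8. The nuclear hormone receptor gene nhr-84 had 26.6, 39.6 and 30.8 CPM in wild type and 88.9, 101 and 93.7 CPM in cup-4. For kel-8, which encodes a kelch-repeat adaptor of a ubiquitin ligase, the values were 43.04, 47.04 and 51.4 CPM against 119.4, 137 and 112 CPM. F54F7.6 was less even, at 17.9, 10.9 and 9.45 CPM in wild type and 43.3, 71.4 and 54.4 CPM in cup-4. The mean folds of these 3 genes were 2.92, 2.60 and 4.41. The largest mean fold of all, 6.58, belonged to F13A7.11, named after its values were seen, and it was uneven. Its cup-4 values of 36.3, 30.6 and 13.3 CPM stood against 7.14, 1.48 and 3.58 CPM in wild type, so that its fold was 20.8 in batch 2 and 3.72 in batch 3.

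**Figure D2:**
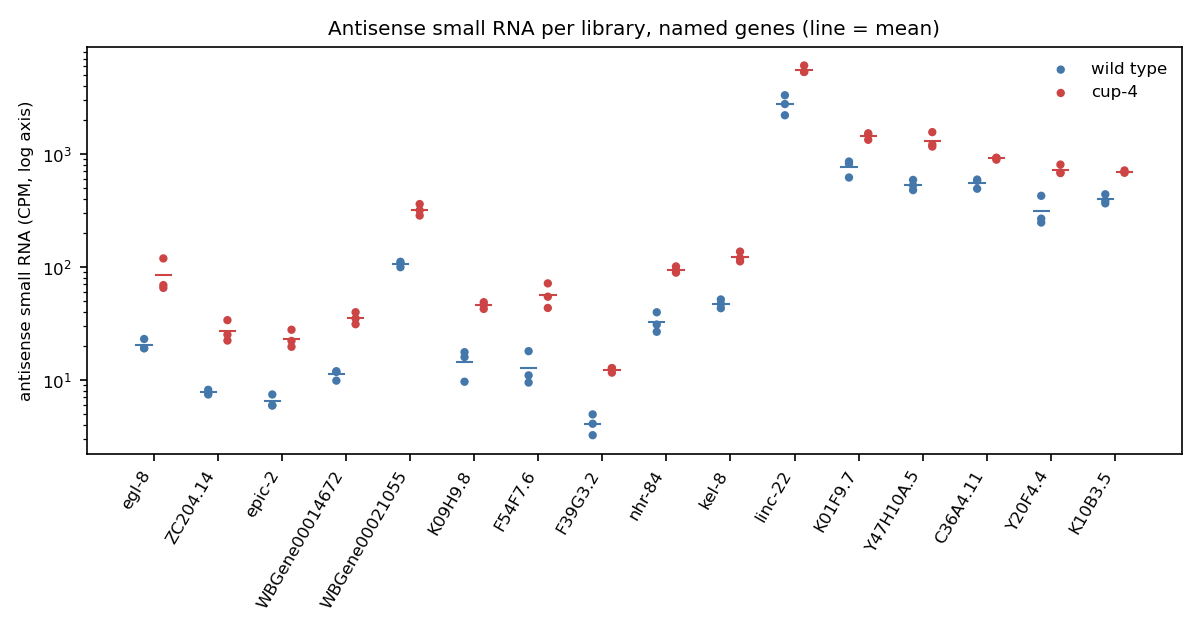
Antisense small RNA (CPM, log axis) is shown per library for the 10 genes with the largest ratio, from egl-8 to kel-8, and the 6 with the most reads, from linc-22 to K10B3.5; blue points are wild type, red points cup-4 and lines the means of 3. The red points lie above the blue points in every gene, which the rule required.

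A few genes took most of the reads of the set. Summed over the 96 genes, antisense small RNA came to 7888, 8486 and 6919 CPM for the wild-type libraries. The cup-4 libraries reached 15901, 16438 and 16662 CPM. The long intergenic noncoding RNA gene linc-22 (chromosome X, 9069138 to 9073735) alone had 2767, 3312 and 2202 CPM in wild type and 5334, 5327 and 6076 CPM in cup-4. Without linc-22 the sums were 4717 to 5174 CPM in wild type and 10567 to 11111 CPM in cup-4. The rule keeps any such sum of members from overlapping between genotypes, with or without linc-22. The other genes with the most reads, not corrected for length, were K01F9.7, Y47H10A.5, C36A4.11, Y20F4.4 and K10B3.5. Y47H10A.5 had 478, 589 and 527 CPM in wild type and 1212, 1162 and 1561 CPM in cup-4. Y20F4.4 had 426, 247 and 267 CPM in wild type, where replicate 1 stood apart, and 677, 805 and 685 CPM in cup-4.

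K01F9.7, a short ncRNA gene on chromosome III (8873960 to 8874078), had 619, 818 and 857 CPM of antisense small RNA in wild type and 1524, 1474 and 1334 CPM in cup-4. Its span overlaps that of the microRNA gene mir-90. The annotation table used here gives no strand, and whether reads of the microRNA were counted as antisense to K01F9.7 was not tested. Other noncoding genes in the set were linc-45, linc-41 and rpr-1, the RNA component of RNase P. The rpr-1 values were 60.8, 38.6 and 33.0 CPM in wild type and 141, 152 and 117 CPM in cup-4, and its span overlaps ints-8, whose own antisense small RNA was 55.7 to 69.0 CPM in wild type and 58.0 to 74.3 CPM in cup-4. In all, 29 of the 89 genes with a RefSeq position overlapped another gene (32.6%), against 39.2% of all genes at 10 CPM in every cup-4 library.

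The protein-coding members have varied roles, and the groups named here were formed after the values were seen. Genes tied to RNA by varied roles were rsd-3, which encodes an epsin-like protein needed for systemic RNA interference, pup-3, a poly(U) polymerase gene, asd-2, which encodes an RNA-binding regulator of splicing, and snpc-1.3, which encodes a subunit of the complex that transcribes piRNA genes in the male germline. For rsd-3 the antisense small RNA was 7.94, 10.3 and 10.2 CPM in wild type and 15.8, 18.8 and 16.6 CPM in cup-4. For snpc-1.3 it was 7.03, 7.84 and 5.55 CPM against 16.7, 22.95 and 15.3 CPM. For pup-3 it was 33.8, 34.3 and 28.3 CPM against 63.0, 64.9 and 58.1 CPM. The mean folds of these 3 genes, 1.80, 2.69 and 1.93, lay around the median of the set.

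Ubiquitin ligase genes were a second group, with kel-8, vhl-1, which encodes the substrate receptor for the hypoxia factor HIF-1, and 3 F-box genes, fbxa-169, fbxa-184 and fbxc-18. The F-box family has 322 genes, of which 71 were at 10 CPM in every cup-4 library. For fbxc-18 the values were 55.8, 43.6 and 40.1 CPM in wild type and 101, 97.7 and 107 CPM in cup-4. The transcription factor genes were nhr-84, the homeobox gene ceh-93, atf-6, a factor of the unfolded protein response, and lin-42, a Period homologue of developmental timing. Of these atf-6 had 33.0, 29.3 and 31.1 CPM in wild type and 58.0, 94.0 and 78.0 CPM in cup-4, with cup-4 replicate 1 lowest. Lipid enzymes were represented by egl-8, the phospholipase A2 gene ipla-2 and the choline kinase gene ckb-4, and zinc transport by ttm-1 and zipt-2.1. For ckb-4 the values were 83.1, 74.1 and 57.8 CPM in wild type and 189, 186 and 156 CPM in cup-4. For ttm-1 they were 15.7, 12.3 and 8.43 CPM against 44.1, 55.4 and 30.5 CPM. The dystroglycan gene dgn-1, which acts in organisation of the gonad and other epithelia, had 38.2, 33.4 and 30.8 CPM against 84.6, 64.5 and 62.3 CPM.

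A list of 68 small RNA pathway genes, Argonaute, polymerase, mutator and germ granule genes among them, does not hold the member rsd-3. None of the 67 genes of that list that were matched was a member. Of these, 58 were at 10 CPM in every cup-4 library, and at the overall share of 1.49% so few genes would hold less than 1 member, so the 0 says nothing about the list. In mRNA none of the 67 passed the adjusted threshold, 4 had an unadjusted p under 0.05 in the higher direction and 3 in the lower, where all genes tested gave 10.8% and 6.35%. No marker of the intestine, muscle, gonadal sheath and spermatheca, coelomocytes, epidermis, neurons, sperm, oocytes or germline stem cells was a member either, which at 1.49% is likewise uninformative for lists of this size. Of the 25 oocyte markers 23, and of the 10 stem and progenitor markers 10, were at 10 CPM of small RNA in every cup-4 library, and none was at 0 in any mRNA library.

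The X chromosome held a larger share of these genes than of the genes they were drawn from. Of the 89 members with a RefSeq position, 23 were on the X (25.8%) and 19 on chromosome V (21.3%), against 6.02% and 15.4% of the 6360 placed genes at 10 CPM in every cup-4 library. Members made up 6.00% of such genes on the X and between 0.785% and 1.94% on each autosome. Of the 21 placed genes that met the mirror rule 1 was on the X. The shift was not limited to the members. Over the 409 X-linked genes with a mean of at least 10 CPM, the median log2 ratio of antisense small RNA was 0.28, while the medians of the 5 autosomes ran from -0.0044 to 0.015. Within batches 1, 2 and 3 the X median was 0.28, 0.28 and 0.39, beside autosomal medians of -0.13, -0.06 and 0.23. Of the placed antisense reads, 5.98%, 6.09% and 5.56% were X-linked in wild type, against 6.82%, 7.06% and 6.94% in cup-4. Without linc-22 these shares were 5.33% to 5.74% and 6.27% to 6.5%, and with or without it they did not overlap between genotypes. In mRNA the X share was 4.72% and 3.01% in wild type against 16.1%, 7.06% and 7.88% in cup-4. The summed mRNA of 30 intestine markers had the same order over the 5 libraries, at 7823 and 5205 CPM against 156507, 32363 and 51141 CPM. Any of these markers on the X count in both figures, so the like order is not independent. No X share of mRNA was taken without them, and the part of the intestine in this share was not tested. The small RNA figures come from the contrast that the rule used, the mRNA figures do not, and none of them carries a test.

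**Figure D3:**
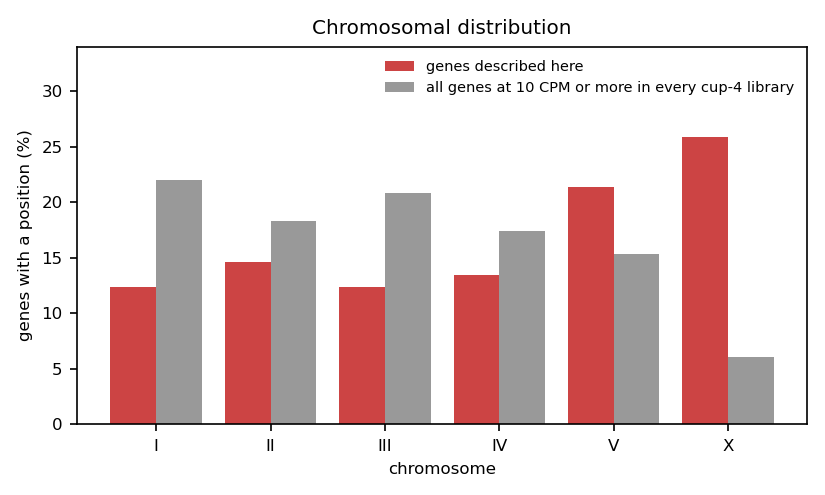
Bars give the percentage of genes on each chromosome, for the 89 described genes with a RefSeq position (red) and for the 6360 placed genes with at least 10 CPM in every cup-4 library (grey). The X holds 25.8% of the former and 6.02% of the latter.

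A cluster of members lies on the X within a stretch from 2398811 to 2412966 (WBcel235), namely dhhc-9, a gene of the DHHC palmitoyltransferase family, C43H6.4 and trpp-12, a gene named for the TRAPP vesicle-tethering complex. In gene order dhhc-9 and C43H6.4 were neighbours, and trpp-12 was 3 steps on. Their antisense small RNA was 8.80, 8.73 and 6.97 CPM in wild type and 15.6, 13.5 and 15.3 CPM in cup-4 for dhhc-9, and 9.77, 7.99 and 9.17 CPM against 21.7, 21.5 and 18.9 CPM for trpp-12. C43H6.4 had more in both genotypes, at 29.8, 23.8 and 19.9 CPM against 49.7, 45.5 and 51.7 CPM. The only other members within 5 steps of each other were lin-42 with Y57G7A.5, and F58E1.13 with fbxa-184, both pairs on chromosome II.

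The members were also genes with little mRNA. Their mean mRNA over the 5 libraries (CPM with TMM scaling, not corrected for length) had a median of 3.41, against 36.0 for all genes at 10 CPM of small RNA in every cup-4 library. That pool also carried more small RNA, with a median wild-type mean of 52.4 CPM against 14.1 CPM for the members. Neither the mRNA level nor the X share was compared at like small RNA level. Of the 96 members, 25 were below 1 CPM of mRNA, 52 from 1 to 10 CPM, 17 from 10 to 100 CPM and 2 above. Members made up 4.78% of the genes at the small RNA minimum whose mRNA was from 1 to 10 CPM, and 0.119% of those above 100 CPM. The X share was also compared at like mRNA level. Among genes with mRNA from 1 to 10 CPM it was 32.7% of the 49 placed members and 13.7% of the 994 placed genes at the same small RNA minimum. From 10 to 100 CPM it was 31.2% of 16 placed members and 4.29% of 2889 genes. Below 1 CPM the order was the other way, with 2 of 22 placed members on the X (9.09%) against 13.1%.

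To ask whether the mRNA of these genes differed, all genes passing a filter on low counts were tested with edgeR's quasi-likelihood test. Of the 96 members 87 passed the filter, and the other 9 had at most 0.291 CPM on average. None of the 87 had an adjusted p under 0.05, nor did any of the 12861 genes tested (0%), and the smallest adjusted p was 0.122. At an unadjusted p under 0.05, 12 members were higher in cup-4 (13.8%, against 10.8% of all genes tested) and 6 were lower (6.90%, against 6.35%). Of the 6074 tested genes at the small RNA minimum, from which the members were drawn, 3.61% were higher and 10% were lower. The shares of the members thus lay nearer to those of all genes than to those of that pool, and the difference from the pool was not tested. Dropping cup-4 replicate 1 left 6 higher (6.90%), and the share of all genes was then 5.99%. The lower count was 3 on dropping wild-type replicate 2, wild-type replicate 3 or cup-4 replicate 2, where the shares of all genes were 3.3%, 4.86% and 4.72%. The mRNA libraries of the genotypes did not overlap in 23 members with higher values in cup-4 (26.4%, against 20.1% of all genes and 8.89% of the pool) and in 13 with lower values (14.9%, against 17.8% and 27%). The median log2 fold change of the 87 was 0.09, against 0.16 over all genes tested and -0.08 over the 6074 tested genes at the small RNA minimum. It was -0.14 without cup-4 replicate 1, where the median of all genes was -0.03, and -0.06 without wild-type replicate 3. In bulk samples fewer cells of a type and less RNA per cell cannot be told apart.

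Markers of some other tissues, but not of all those listed, moved with genotype in the mRNA libraries. The intestine markers, with the sums given above, did not overlap between genotypes in their sums, and values of wild type are given here and below as replicates 2 and 3. Of these 30 markers 25 had an unadjusted p under 0.05, all higher in cup-4, 0 were lower and none was at 0 in any mRNA library. All genes tested gave 10.8% higher and 6.35% lower at that p. The 23 muscle markers summed to 3645 and 2191 CPM in wild type and to 9151, 4112 and 6031 CPM in cup-4. Of the 22 muscle markers tested, 12 had an unadjusted p under 0.05 in the higher direction and 0 in the lower. The 8 markers of gonadal sheath and spermatheca, somatic tissues of the gonad, summed to 449.6 and 839 CPM in wild type and to 1364, 961 and 1339 CPM in cup-4, also without overlap. Of these 8 markers 2 had an unadjusted p under 0.05, both higher, too few to set beside those shares. The sums of neuron, epidermis, sperm, oocyte and germline stem cell markers overlapped between genotypes. The 2 coelomocyte markers, cup-4 itself among them, summed to 5.47 and 4.33 CPM in wild type and 3.08, 2.34 and 2.32 CPM in cup-4. Of this the deleted gene cup-4 gave 4.60 and 3.44 CPM in wild type and 1.20, 1.17 and 0.858 CPM in the mutant. The lower sum was thus that of cup-4 and shows no fall of the other marker, unc-122. In small RNA the intestine markers summed to 38.5 to 59.8 CPM in wild type and to 86.6 to 120 CPM in cup-4, small beside the sum of the members, and the muscle markers to 386 to 426 CPM and 386 to 388 CPM. The wild-type libraries also differed from each other, as 31 major sperm protein genes summed to 1061 CPM in replicate 2 and 69.6 CPM in replicate 3, against 336 to 1015 CPM in cup-4. The part of these tissues in the members' mRNA values was not tested.

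Among the members with more mRNA in cup-4, Y47H10A.5 (chromosome I, 12095482 to 12097987) had the lowest p. Its mRNA was 1.30 and 0.364 CPM in wild type against 11.2, 4.75 and 21.5 CPM in cup-4. The groups did not overlap, and the log2 fold change was 3.90 (SE 0.89, p 0.00441, edgeR adjusted p 0.147), and its small RNA was higher in cup-4 as well. With 33 and 9 counts in wild type, Y47H10A.5 passed the filter on low counts only with its cup-4 libraries. Its p is therefore no support, here and in the counts of higher members. Y102A11A.3 on the X had 1.61 and 1.90 CPM in wild type and 12.9, 5.83 and 5.84 CPM in cup-4, or 2.22 on the log2 scale (SE 0.52, edgeR adjusted p 0.147). The mRNA of epic-2 was 93.2 and 54.6 CPM against 497, 168 and 259 CPM, or 2.06 (SE 0.54, edgeR adjusted p 0.164). In these genes, as in T04B8.5 and zipt-2.1, cup-4 replicate 1 was the highest or second highest library, and it was also the library with the most intestine marker mRNA.

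T04B8.5 had 14.7 and 15.7 CPM in wild type and 80.1, 27.8 and 44.04 CPM in cup-4, or 1.73 on the log2 scale (SE 0.46, edgeR adjusted p 0.164). The zinc transporter gene zipt-2.1 had 2.60 and 1.496 CPM against 12.6, 7.00 and 5.15 CPM, or 2.01 (SE 0.54, edgeR adjusted p 0.164). The mRNA of egl-8 was more even over the cup-4 libraries, at 25.8, 20.7 and 23.5 CPM against 7.63 and 14.2 CPM in wild type, or 1.09 (SE 0.33, edgeR adjusted p 0.188). The other members among the 12, named with their values seen, were mth-2, cutl-10, C06B8.7, Y39E4B.6, asd-2 and acdh-1. For the splicing regulator gene asd-2 the mRNA was 15.0 and 18.4 CPM in wild type and 38.8, 23.7 and 31.6 CPM in cup-4, or 0.91 (SE 0.28, edgeR adjusted p 0.191). The gene acdh-1 encodes an acyl-CoA dehydrogenase. Its mRNA, the most abundant of the set in reads, was 741 and 306 CPM in wild type and 2598, 1158 and 1274 CPM in cup-4, with an edgeR adjusted p of 0.222, while its antisense small RNA was only 7.46, 8.52 and 4.65 CPM against 14.5, 16.96 and 13.6 CPM.

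**Figure D4:**
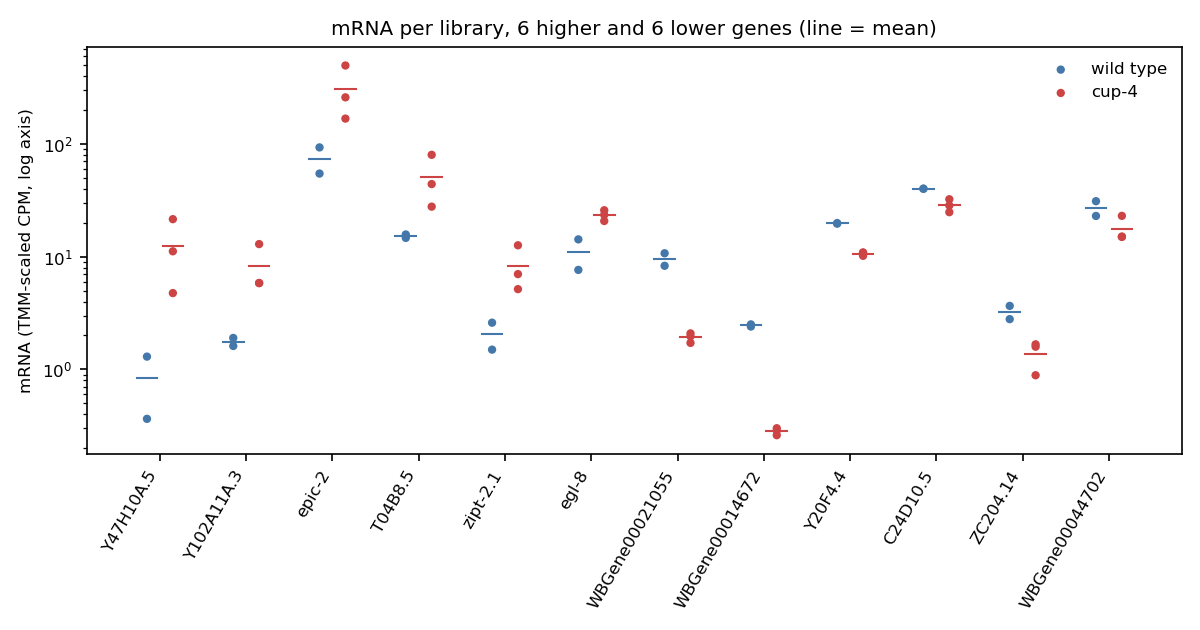
mRNA (CPM with TMM scaling, log axis) is shown per library for the 6 described genes with higher and the 6 with lower mRNA in cup-4 of lowest p; blue points are 2 wild-type libraries, red points 3 cup-4 libraries and lines the means. WBGene00014672 and Y20F4.4 show the tightest groups, and WBGene00044702 the only overlap.

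In the opposite direction, WBGene00021055, one of the 5 genes with the largest small RNA ratio, had the lowest p. It had 8.30 and 10.7 CPM of mRNA in wild type and 2.08, 1.96 and 1.72 CPM in cup-4, which is -2.30 on the log2 scale (SE 0.35, p 0.000435, edgeR adjusted p 0.122). WBGene00014672 had 2.40 and 2.51 CPM against 0.261, 0.285 and 0.300 CPM, or -3.10 (SE 0.54, edgeR adjusted p 0.122), but it passed the filter on low counts through wild type alone, so it had to differ and its p supports nothing, here and in the counts of lower members. In both genes all cup-4 libraries were alike and below both wild-type libraries, while their small RNA was above. With the replicate block the adjusted p of WBGene00021055 was 0.0570. Y20F4.4 had 19.6 and 19.9 CPM in wild type and 10.9, 10.8 and 10.2 CPM in cup-4, or -0.89 (SE 0.22, edgeR adjusted p 0.154). ZC204.14 had 3.66 and 2.79 CPM against 1.67, 0.887 and 1.59 CPM, or -1.23 (SE 0.50, edgeR adjusted p 0.288).

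Smaller differences were found in C24D10.5, at 40.1 and 40.0 CPM in wild type and 32.3, 24.8 and 28.5 CPM in cup-4, or -0.49 (SE 0.20, edgeR adjusted p 0.281). WBGene00044702, at 22.96 and 31.1 CPM against 15.0, 15.1 and 23.01 CPM, had the only overlap of the 6 and an unadjusted p of 0.0747. It is thus not among the 6 lower members counted at an unadjusted p under 0.05. The remaining member of that count was rdl-1, below 1 CPM on average. Its mRNA was 1.30 and 1.33 CPM against 0.521, 0.285 and 0.343 CPM, or -1.78 (SE 0.64, edgeR adjusted p 0.240). It passed the filter on low counts only with its wild-type libraries, so its p is no support either. DESeq2 called 9 members, against 5.8% higher and 2.42% lower of all genes tested and 1.58% and 3.75% of the genes at the small RNA minimum. The 6 higher (6.90%) were Y47H10A.5 (with the filter limit given above), Y102A11A.3, epic-2, T04B8.5, zipt-2.1 and acdh-1, with adjusted p from 9.72e-05 to 0.0265. The 3 lower (3.45%) were WBGene00021055 (adjusted p 5.21e-07), WBGene00014672 (0.000764, with the same limit) and Y20F4.4 (0.00963). The replicate block called none of them, against 1.49% of all genes higher and 0.0544% lower.

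**Figure D5:**
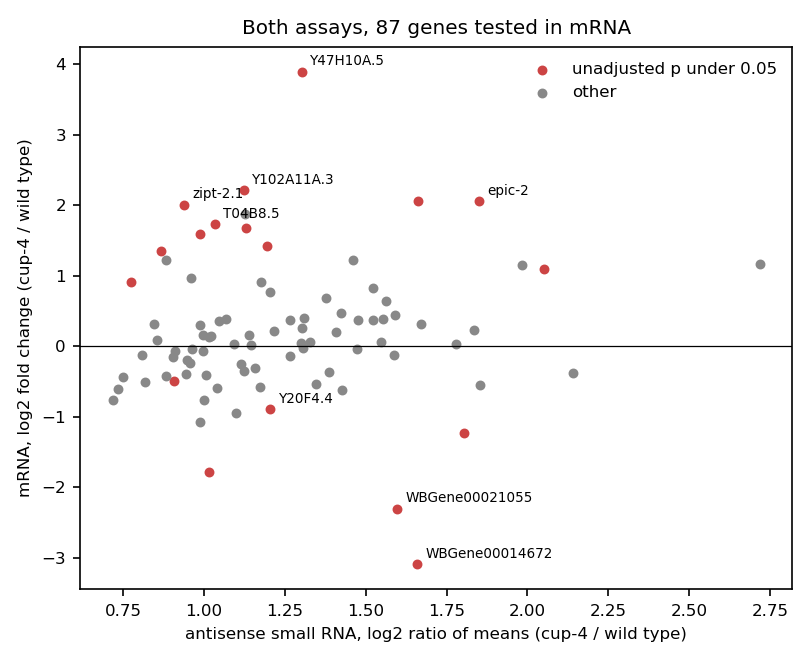
Each point is 1 of the 87 described genes tested in mRNA, placed by its log2 ratio of mean antisense small RNA (x) and its log2 fold change of mRNA (y), both cup-4 over wild type; red points have an unadjusted mRNA p under 0.05. Genes of like small RNA ratio lie on both sides of 0 in mRNA. The extremes, WBGene00014672 at -3.10 and Y47H10A.5 at 3.90, each passed the filter on low counts only with the libraries of 1 genotype.

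Over the 87 genes the size of the small RNA ratio and the mRNA fold change correlated weakly (Spearman 0.17, Pearson 0.08), across genes that share the same libraries. The rule admitted only raised small RNA ratios, and over so cut a range a weak correlation says little about a relation. Many members had mRNA values that overlapped between genotypes. For nhr-84 they were 2.63 and 2.22 CPM in wild type and 3.54, 2.44 and 1.63 CPM in cup-4, and for linc-22 they were 1.30 and 0.890 CPM against 1.88, 0.634 and 1.12 CPM, with small RNA mean folds of 2.92 and 2.02. The genes rsd-3, pup-3 and snpc-1.3 had log2 fold changes of 0.32 (SE 0.25), -0.19 (SE 0.38) and -0.61 (SE 0.37), with edgeR adjusted p of 0.579, 0.846 and 0.460. Of the 22 X-linked members tested, 1 had an unadjusted p under 0.05 in the higher direction and 0 in the lower. All genes tested gave 10.8% and 6.35%, and with so few genes these counts say nothing about the X-linked members. The median mRNA log2 fold change of the X-linked members was 0.11, against 0.24 for the 300 X-linked tested genes at the small RNA minimum, whereas that minimum gave -0.10 to -0.07 on the autosomes. The mRNA of msrp-2, like that of the major sperm protein genes, differed between the wild-type libraries, at 24.3 CPM in wild-type replicate 2 and 1.33 CPM in replicate 3, and 24.4, 9.66 and 5.11 CPM in cup-4.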

How the data were processed

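The authors deposited a table of raw, unpooled counts for each assay, with 1 row per WormBase gene identifier. Per the submitters' processing notes, FastQC, cutadapt, HISAT2, HTSeq and DESeq2 were named with build ce11, and their versions, settings and annotation are not given in the sources used here. Per the labels, small RNA counts are in antisense orientation, and small RNA and directional mRNA kits of New England Biolabs were used. The 5 summary rows, which held 43.99% to 49.1% of small RNA and 13.4% to 23.8% of mRNA reads, were left out. How reads shared by near-identical genes, such as F-box genes, were assigned is not stated, nor is strand use for mRNA, so values of such genes and of overlapping genes are uncertain. Symbols matched 44017 of 46904 identifiers and 89 of the 96 members. Positions came from RefSeq, assembly WBcel235.

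Small RNA CPM used library totals, and mRNA CPM used TMM-scaled totals. mRNA was tested in R 4.3.3 with edgeR 4.0.16 (filterByExpr, TMM, robust quasi-likelihood fit, genotype alone, Benjamini-Hochberg over all genes tested, threshold 0.05), and SE is the absolute log2 fold change over the square root of F. Results were recomputed with a replicate block, with DESeq2 1.42.0, with limma-voom (limma 3.58.1), other scalings, filters and a threshold of 0.1, batches 2 and 3, and leaving out each library. Replicate numbers pair samples because the labels give them as batches. Deviations from genotype means of same-batch libraries correlated at 0.20, 0.12 and 0.15 in small RNA batches 1, 2 and 3, and at -0.09 and 0.60 in mRNA batches 2 and 3. Replicate libraries all differed beyond counting noise (lowest chi-square over its degrees of freedom 20.5). The labels do not say whether replicates came from separate cultures, although the design text calls them biological, and p-values measure the spread between them. The members, gene lists and alternatives were chosen with earlier results of these data known. Genes were named by rule: the 10 largest ratios, the 6 with the most reads, 3 on each side of the threshold, and in mRNA the 6 higher and 6 lower genes of smallest p whose average is 1 CPM or more. Other named genes were chosen after their values were seen.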

Additional observations from a re-analysis of the deposited data

How the results depend on the processing

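The number of genes meeting the small RNA rule, 96, was 65 with TMM scaling, 138 with a minimum of 5 CPM and 67 with one of 20 CPM. It was 18 with a ratio of at least 2 and 205 when each cup-4 library was compared with the wild-type library of its own batch (the replicate block). Without any 1 library it was 111 to 223, by construction, since fewer libraries must satisfy the rule. In mRNA the number of members past the adjusted threshold was 0 in each direction, and was 6 higher and 3 lower in DESeq2 and 1 higher and 2 lower without a filter, where 1.21% and 0.28% of all 21071 genes were called and the members' shares were 1.04% and 2.08%. It was 0 in both directions with the replicate block, batches 2 and 3 only, limma-voom, RLE size factors, total counts, a minimum mean count of 50, an adjusted threshold of 0.1 and without any 1 library. The members with an unadjusted p under 0.05, 12 higher and 6 lower, were 6 higher in batches 2 and 3 only, which are the libraries left without cup-4 replicate 1. Without any 1 library they were 6 to 12 higher and 3 to 6 lower, where a wild-type group of 1 library is assumed to vary like the cup-4 group. With the replicate block they were 9 and 4. The median mRNA log2 fold change of the members, 0.09, was -0.14 in batches 2 and 3 only, -0.0009 with the replicate block, -0.02 with total counts, and -0.14 to 0.20 without any 1 library. The causes of these differences were not tested. No direction of the 12 genes named for mRNA was reversed under the alternatives run, and WBGene00014672 has no value with a minimum mean count of 50. A gene at 3 counts has 0.0763 to 0.202 CPM in the small RNA libraries and 0.101 to 0.141 CPM in mRNA, and the 9 members that did not pass the filter on low counts, at most 0.291 CPM on average, were not tested. The replicate block changed no member's call at the adjusted threshold.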
